A study of Mus musculus with 4 samples.

Results

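The genes described here are 8 antimicrobial genes of mouse skin, chosen by name: the beta-defensins Defb1, Defb3, Defb4, Defb6 and Defb14, the cathelicidin Camp, the lipocalin Lcn2 and the protease inhibitor Slpi. Of these, 7 had a row among the 17721 genes of the deposited table. Defb4 had none and was not analysed here. RNA was sequenced from epidermal lysates of back skin of mice of the C57BL/6 strain, aged 63 days, in 4 libraries. Of these, 2 came from LDB2-/- animals, which lack the LIM-domain binding adaptor Ldb2, and 2 from wild type animals. The epidermis was loosened from the dermis with the protease dispase before total RNA was extracted. The labels give no allele, sex or pooling for the LDB2-/- animals, and they do not say whether the libraries of a genotype came from separate animals, so p-values measure the spread between these libraries, which may be technical.

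Beta-defensins are small cationic peptides, folded around conserved disulfide bonds, that epithelia secrete and that damage microbial membranes. Epithelia make Defb1 without stimulation, while Defb3, Defb4 and Defb14 can be induced by microbial products and cytokines, with Defb14 the mouse counterpart of human DEFB103. Camp encodes the precursor of the mouse cathelicidin peptide. Lcn2 binds bacterial siderophores and so withholds iron, and Slpi inhibits leukocyte proteases such as neutrophil elastase and also has antimicrobial activity. Camp, Lcn2 and Slpi are made by neutrophils as well as by epithelia.

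Total counts ran from 54095522 to 68436842 per library, with at least 1 read on 15671 and 15468 genes in LDB2-/- and on 16416 and 16599 in wild type. The targeted gene Ldb2 had 0 and 0 counts in LDB2-/- and 0 and 8 in wild type, too few to check the genotype labels. Keratinocyte markers such as Krt14, at 2310 ± 51.5 FPKM in LDB2-/- and 5387 ± 408.8 FPKM in wild type (SD, n = 2 each), were abundant in all libraries, as the labelled tissue would have them. Markers of fibroblasts, endothelium, melanocytes and skeletal muscle were detected too, and all those tested rose. Markers of the growing hair were far higher in LDB2-/-, and all 14 of a list of such genes rose. FPKM, which divides fragments by transcript length and by library size, is the scale on which levels of different genes are compared below. Fold changes come from the counts, scaled with TMM (a trimmed mean that centres the bulk of genes on no change), and are given as log2 of LDB2-/- over wild type with the Benjamini-Hochberg adjusted p of edgeR's quasi-likelihood test over 12400 genes. A gene was called, and is said to have risen or fallen, where that p was under 0.05.

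All 5 beta-defensins listed lie on chromosome 8 in the mm10 build, on the plus strand and in 2 places. Defb14 (19194357 to 19195212), Defb4 (19198706 to 19201545), Defb6 (19225478 to 19228209) and Defb3 (19293360 to 19295291) lie within one gene cluster, and Defb1 (21776599 to 21795185) starts 2582 kb from the start of Defb14. Camp is on chromosome 9 (109847379 to 109849617), Lcn2 on chromosome 2 (32384633 to 32388252) and Slpi on chromosome 2 (164354070 to 164389095), these 3 on the minus strand. All 8 are annotated as protein coding. Slpi overlaps the annotated microRNA gene Mir7678 on its own strand, and no other annotated gene overlaps a member.

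The nearby paralogs Defb6 and Defb3 were at the top and near the bottom of the range of levels, so the DNA before their annotated starts is shown. Each line gives the 250 bases before the RefSeq start (GRCm38.p6), 5′ to 3′, and capitals mark bases that differ or lie in a gap between the aligned sequences.
Defb6 (chr8:19225228-19225477, + strand): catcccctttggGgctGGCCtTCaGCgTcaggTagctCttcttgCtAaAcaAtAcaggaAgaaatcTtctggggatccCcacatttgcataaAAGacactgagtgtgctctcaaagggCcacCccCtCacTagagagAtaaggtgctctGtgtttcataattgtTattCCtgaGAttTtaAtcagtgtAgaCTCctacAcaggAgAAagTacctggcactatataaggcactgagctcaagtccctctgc
Defb3 (chr8:19293111-19293360, + strand): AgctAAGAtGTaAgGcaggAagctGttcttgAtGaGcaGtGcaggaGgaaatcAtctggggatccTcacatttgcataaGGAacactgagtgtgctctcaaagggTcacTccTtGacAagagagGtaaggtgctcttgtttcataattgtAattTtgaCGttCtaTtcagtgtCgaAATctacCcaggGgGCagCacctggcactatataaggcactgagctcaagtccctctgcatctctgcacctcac
Over the 238 aligned columns, 192 were identical (80.7%), with 43 differing bases and 3 gap columns. The alignment left 27 bases of the ends unpaired in all, since the annotated starts are offset from each other. These unpaired bases, at the left end of Defb6 and the right end of Defb3, are in lower case too. Both windows hold TATATAA close to the start, from 31 bases before it in Defb6 and from 46 bases before it in Defb3.

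Sequences before a RefSeq start were found for 5 of the 8 members, Camp, Defb3, Defb6, Lcn2 and Slpi. The windows were searched on both strands for 6 short motifs. The C/EBP-like motif TTGCNNAA was found in 4 of the 5, all but Camp, and in 9.56% of the 32851 RefSeq windows of this length. The paralogs Defb3 and Defb6 share TTGCATAA and TATATAA at matching places of their alignment. Their windows are therefore not separate cases, and the counts of windows are a description. The Lcn2 and Slpi windows lie inside the gene spans given above, and the Camp window overlaps its span in part. Those spans come from GENCODE and begin further upstream than the RefSeq starts used here. The Lcn2 and Slpi windows are shown with TTGCNNAA, on either strand, in capitals.
Lcn2 (chr2:32387740-32387989, - strand): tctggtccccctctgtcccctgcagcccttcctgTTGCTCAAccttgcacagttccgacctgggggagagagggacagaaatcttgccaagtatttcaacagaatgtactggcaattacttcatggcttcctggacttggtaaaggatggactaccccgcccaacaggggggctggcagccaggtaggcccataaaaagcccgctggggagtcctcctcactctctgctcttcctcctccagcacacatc
Slpi (chr2:164356508-164356757, - strand): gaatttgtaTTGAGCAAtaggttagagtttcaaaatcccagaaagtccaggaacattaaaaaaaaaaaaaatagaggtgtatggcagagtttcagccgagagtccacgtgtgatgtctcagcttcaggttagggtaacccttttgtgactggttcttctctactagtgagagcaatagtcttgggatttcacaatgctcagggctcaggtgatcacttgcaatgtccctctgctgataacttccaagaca
TATATAA was found in 2 of the 5 windows, Defb3 and Defb6, and in 3.04% of all windows. The NF-kB-like motif, GGG and CC with any 5 bases between them, was found in 3, Defb3, Defb6 and Lcn2, against 45.8% of all. The other 3 motifs, TATAAA (12.4% of all windows), the STAT-like TTCNNNGAA (7.02%) and the AP-1-like TGANTCA (6.75%), were found in 0 of the 5. In Defb6 a NF-kB-like match and a C/EBP-like match each occur more than once, and 2 of its NF-kB-like matches overlap each other. A match is a description of letters and not of binding.

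Defb6 and Defb1 fell in LDB2-/- epidermis, 3.25-fold and 1.52-fold, and their calls held under all 16 alternatives tried. Of the 7 members with a row, 5 reached 1 FPKM in at least 2 libraries and were tested. Of these, 3 were called lower (Defb1, Defb6 and Defb14) and 1 higher (Slpi), while Lcn2 did not pass. Of all genes tested, 28.8% were called lower and 28.4% higher, 57.2% in all, so calls were common in this comparison. On TMM-scaled counts the genotypes did not overlap for the same 4 members, while 41.7% of all genes tested were lower and 40.8% higher without overlap, 82.5% in all. By the adjusted p of the authors' deposited table, Defb1 and Defb6 were called lower and 0 members higher, against 24% lower and 23.5% higher of the 17390 genes with a p there. The call of Defb14 was lost under 7 of 15 alternatives and that of Slpi under 8 of 15. Defb14 passed the filter on low values through both wild type libraries and LDB2-/- library 2, and Slpi through both LDB2-/- libraries and wild type library 1, so the count of calls is not evidence about the list. Bulk RNA cannot tell fewer cells of a type from less RNA per cell.

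**Figure D1:**
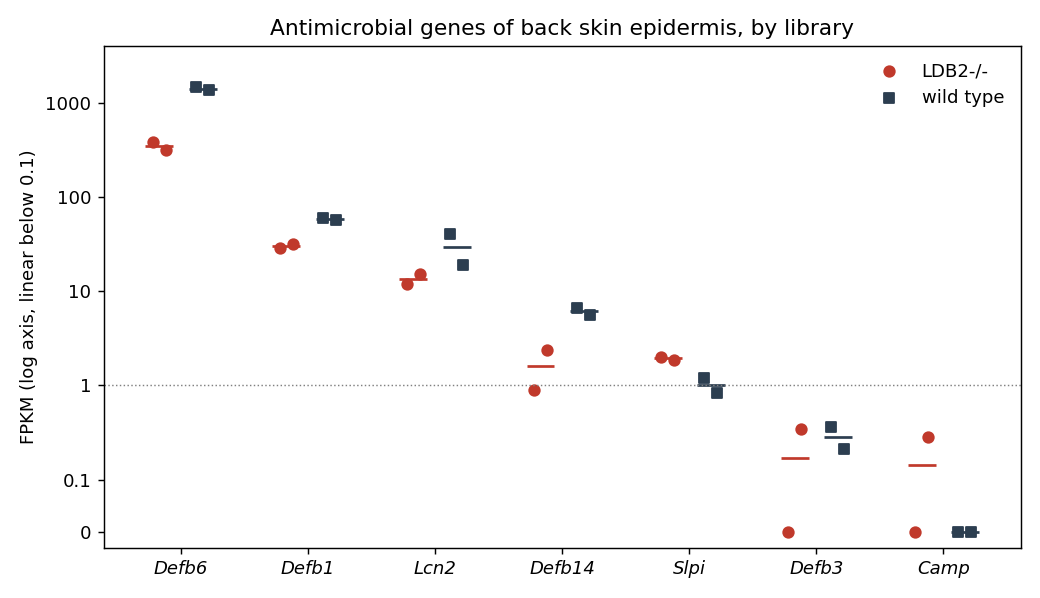
FPKM of the 7 antimicrobial genes with deposited values on a log axis that is linear below 0.1, with LDB2-/- libraries as red circles, wild type libraries as dark squares, bars for the mean of the 2 libraries and a dotted line at 1 FPKM. Defb6 lies above 300 FPKM in every library and Defb3 and Camp lie below 1 FPKM in every library.

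Defb6 was the most abundant member by far. It had 379.1 and 314.0 FPKM in LDB2-/- libraries 1 and 2, against 1450 and 1356 FPKM in wild type libraries 1 and 2. Both LDB2-/- libraries lay far below both wild type libraries, and libraries of one genotype were close to each other. By mean FPKM it ranked 226 among the 17721 genes in LDB2-/- and 48 in wild type. FPKM divides by a short transcript here, the annotated Defb6 transcript being 323 bases long. By scaled counts alone, with no division by length, it ranked 1572 in LDB2-/- and 255 in wild type.

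The counts behind these levels were 6726 and 7073 in LDB2-/- and 32007 and 25566 in wild type, so counting error was small. The log2 fold change of Defb6 was -1.70 (SE 0.13, adjusted p = 0.000309), a 3.25-fold lower level in LDB2-/- after TMM scaling. On FPKM as deposited the means differed 4.05-fold, at 346.6 ± 46.0 in LDB2-/- and 1403 ± 66.3 in wild type (SD, n = 2 each). In the authors' deposited table Defb6 had a signed fold change of -3.28 with an adjusted p = 1.6e-40. Of all genes tested, 7.75% had a lower log2 fold change than Defb6.

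No stretch of 31 bases of the Defb6 transcript occurs in the annotated transcripts of another gene, on either strand. The same holds for Defb1, Defb14, Camp, Lcn2 and Slpi. In Defb3, 4 of 245 such stretches are shared with Defb4, Defb5 or Defb8, so its few reads are less certain.

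Defb1, the constitutive beta-defensin, was second in level in both genotypes. It had 28.9 and 31.8 FPKM in LDB2-/- libraries, against 59.2 and 56.2 FPKM in wild type libraries. The groups did not overlap, and the spread within each was small beside the gap between them. Its log2 fold change was -0.61 (SE 0.13, adjusted p = 0.0111), a 1.52-fold lower level in LDB2-/-. The authors' deposited table gave it a signed fold change of -1.53 with an adjusted p = 0.000855. Defb1 changed less than Defb6, so the FPKM of Defb6 over that of Defb1 was 13.1 and 9.87 in LDB2-/- and 24.5 and 24.1 in wild type. With 2 libraries per genotype the exact permutation test of such a ratio cannot go below p = 0.333, so the ratio is given as a description.

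Defb14 was a low-level gene with a call close to the threshold. It had 0.885 and 2.34 FPKM in LDB2-/- libraries, from 17 and 54 counts, against 6.63 and 5.61 FPKM in wild type libraries, from 150 and 109 counts. Both LDB2-/- libraries lay below both wild type libraries, but they differed 2.65-fold from each other. The log2 fold change was -1.55 (SE 0.52, adjusted p = 0.0467), and 8 of 15 alternatives kept the call, with adjusted p from 0.0039 to 0.142. Without LDB2-/- replicate 1 the log2 fold change was -1.02 (adjusted p = 0.0785), and without LDB2-/- replicate 2 it was -2.43. Leaving out either wild type replicate also ended the call (edgeR adjusted p = 0.142 without replicate 1 and 0.088 without replicate 2). In the authors' deposited table its signed fold change was -2.97 with an adjusted p = 0.0798.

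Defb3 was barely detected. It had 0 and 8 counts in LDB2-/- libraries and 8 and 4 in wild type libraries, at most 0.36 FPKM in any library, and was not tested. The genotypes overlapped, and no difference was detectable at this depth. With no filter on low values its log2 fold change was -0.33 (adjusted p = 0.906). A library count of 0 still allows 3 counts, or 0.0555 CPM (counts scaled to 1000000 per library) in LDB2-/- library 1, a limit that covers counting error only.

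Summed over the 4 beta-defensins with a row, FPKM was 408.9 and 348.5 in LDB2-/- and 1516 and 1418 in wild type, a ratio of means of 0.258. The sums did not overlap between genotypes, with the same limit of p = 0.333 on an exact test. Defb6 made up 92.7% and 90.1% of this sum in LDB2-/- and 95.6% and 95.6% in wild type, so the sum is close to a second reading of Defb6. The 6 other beta-defensins of the table, Defb2, Defb5, Defb15, Defb30, Defb35 and Defb50, were all under 1 FPKM in every library, and none was tested. Defb30, which overlaps Defb42 on the opposite strand, had 28 and 40 counts in LDB2-/- and 0 and 0 in wild type. Defb2 had 3 and 0 counts in LDB2-/- and 21 and 14 in wild type.

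**Figure D2:**
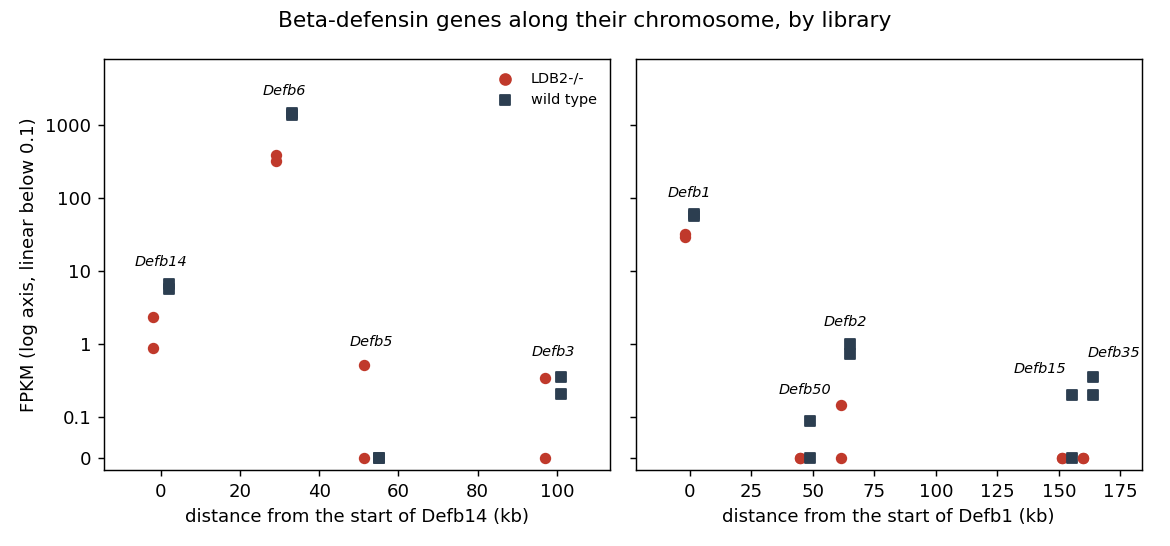
FPKM of the beta-defensin genes of chromosome 8 with deposited values, on a log axis that is linear below 0.1, against distance in kb from the start of Defb14 (left) and of Defb1 (right), with LDB2-/- libraries as red circles and wild type libraries as dark squares, set apart sideways. Defb6 stands above its neighbours Defb14, Defb5 and Defb3 in every library, and Defb1 stands above Defb50, Defb2, Defb15 and Defb35.

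Camp, the cathelicidin gene, had no counts in 3 of the 4 libraries. It had 0 and 12 counts in LDB2-/- and 0 and 0 in wild type, so its only reads came from LDB2-/- library 2, at 0.287 FPKM. It was too low to test, and with no filter on low values its adjusted p was 0.215.

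Lcn2 did not pass the test, and its wild type libraries differed from each other. It had 11.9 and 15.0 FPKM in LDB2-/- libraries, against 40.2 and 19.1 FPKM in wild type libraries, which differed 2.11-fold. On FPKM both LDB2-/- libraries lay below both wild type libraries. On CPM scaled with TMM the genotypes overlapped, with 11.3 and 15.0 in LDB2-/- and 31.6 and 14.7 in wild type, and so did the authors' deposited log2 values, 9.66 and 9.91 in LDB2-/- and 10.59 and 9.89 in wild type. The log2 fold change was -0.82 (SE 0.38, adjusted p = 0.113). Without wild type replicate 2 it was -1.27 and was called (adjusted p = 0.00479), and without wild type replicate 1 it was -0.16 (adjusted p = 0.657), so wild type library 1 decided the size. The authors' deposited table gave a signed fold change of -1.78 with an adjusted p = 0.0629.

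Slpi was the one member called higher in LDB2-/-, at a low level. It had 1.99 and 1.87 FPKM in LDB2-/- libraries, from 96 and 115 counts, against 1.21 and 0.835 FPKM in wild type libraries, from 73 and 43 counts. Both LDB2-/- libraries lay above both wild type libraries. The log2 fold change was 1.22 (SE 0.37, adjusted p = 0.0340), a 2.34-fold higher level, and it stayed positive in all 15 alternatives, of which 7 kept the call, with adjusted p from 0.0273 to 0.223. Leaving out LDB2-/- replicate 2 (adjusted p = 0.0534) or either wild type replicate (adjusted p = 0.0758 without replicate 1 and 0.223 without replicate 2) ended the call. The authors' deposited table gave it a signed fold change of 2.32 with an adjusted p = 0.0934.

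**Figure D3:**
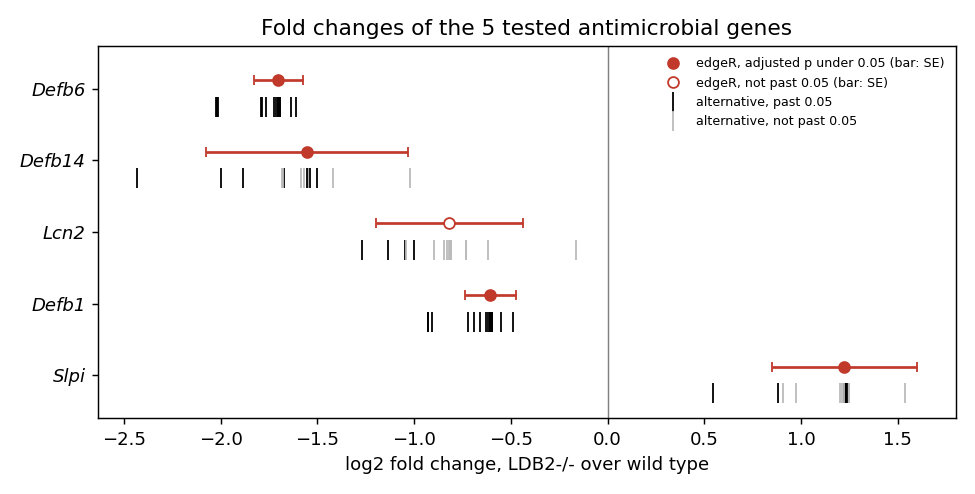
Log2 fold change of LDB2-/- over wild type for the 5 tested genes, with red circles for the edgeR value (filled where the adjusted p is under 0.05), bars for its SE, and ticks below for each alternative, black where past 0.05 and grey where not. Defb6 and Defb1 have black ticks only, while Defb14, Lcn2 and Slpi have both kinds on one side of 0.

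In LDB2-/- the order of mean FPKM was Defb6, Defb1, Lcn2, Slpi, Defb14, Defb3 and Camp. The libraries of Slpi and Defb14 overlapped, as did those of Defb3 and Camp, so their places cannot be told apart. In wild type the order was Defb6, Defb1, Lcn2, Defb14, Slpi, Defb3 and Camp, and no neighbours in that order overlapped between libraries.

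The scaling moved the size of the members' changes and ended or gave a call for 2 of them. With the library total alone the median log2 fold change of all genes tested was -0.33, against -0.01 with TMM, and the split of calls was 2248 higher and 5096 lower, against 3521 higher and 3576 lower with TMM. With the library total alone Defb6 was at -2.02, Defb1 at -0.93, Defb14 at -1.88, Lcn2 at -1.14 and Slpi at 0.91, of which Lcn2 was then called and Slpi was not. These values lie below those with TMM by about the shift of that median.

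Other antimicrobial proteins of skin moved in both directions, on lists whose counts are to be read against the 28.4% higher and 28.8% lower of all genes tested. Of 20 listed genes with a row, 14 were tested, 6 rose and 5 fell, with a median log2 fold change of 0.67, against -0.01 over all genes tested. Saa3 and Adm passed the filter on low values through LDB2-/- alone, and Ccl20 through wild type alone. Other lists hold such genes too, so list counts and medians are a description. Changes of the genes here and below are on the log2 scale. S100a7a, a psoriasin-family protein, rose by 6.75 (SE 0.66, adjusted p = 0.000693), and S100a8, a subunit of the metal-binding protein calprotectin, rose by 2.35 (adjusted p = 0.00191). Saa3, an acute phase protein, rose by 5.90 from a low level, with 147 and 202 counts in LDB2-/- and 0 and 7 in wild type. Hamp2, a hepcidin gene, fell by 2.55 (adjusted p = 0.00408), with 22 and 51 counts in LDB2-/- and 256 and 275 in wild type. The peptidoglycan recognition proteins Pglyrp4 (-1.65, adjusted p = 0.00253) and Pglyrp3 (-1.11, adjusted p = 0.0336) fell. Ccl20, an antimicrobial chemokine that shares the receptor Ccr6 with beta-defensins, had 0 and 0 counts in LDB2-/- and 279 and 82 in wild type, at least 94.6-fold lower against 3 counts over the LDB2-/- group.

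The WAP-domain family, to which Slpi belongs, split as well. Of 6 tested relatives 3 rose and 3 fell. Wfdc2 and Wfdc17 passed the filter on low values through LDB2-/- alone, and Wfdc3 through wild type alone. Wfdc21 was at 2.77 ± 0.11 FPKM in LDB2-/- and 140.4 ± 42.7 FPKM in wild type (SD, n = 2 each), or -5.33 on the log2 scale (edgeR adjusted p = 0.000149). Wfdc5 fell by 3.02 and Wfdc3 by 1.17. Wfdc18 (3.93), Wfdc2 (3.28) and Wfdc17 (2.42) rose. Beside these, all 4 tested genes of a list set for gland epithelium rose, Csn3, Krt8, Krt18 and Krt19. The keratins Krt8, Krt18 and Krt19 are not particular to glands. Csn3 had 281 and 481 counts in LDB2-/- and 0 and 0 in wild type, so it passed the filter through LDB2-/- alone. The untested gene of that list with a row was Ltf, which stands on the neutrophil and antimicrobial lists too. The summed FPKM of these 5 genes was 19.6 and 39.9 in LDB2-/- and 1.51 and 0.751 in wild type. Their part in the values of Slpi and its relatives was not tested.

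Genes that act on the members or with them mostly fell. Of 8 tested partners and processing enzymes, 6 fell and 1 rose, with a median of -0.95. Klk5 (-1.67, adjusted p = 0.000387) and Klk7 (-0.56, adjusted p = 0.00707), serine proteases that cut the cathelicidin precursor in human skin, fell, and so did their inhibitor Spink5 (-2.25) and the related protease Klk8 (-1.34). Mmp9, a protease that forms complexes with LCN2 in human, fell by 1.48, and Slc22a17, a receptor of Lcn2, fell by 0.56 (adjusted p = 0.0424). Grn, the progranulin gene, whose product Slpi shields from elastase, rose by 0.80. Among receptors 3 of 8 were tested. Mc1r, the melanocortin receptor that a beta-defensin binds in dog, rose by 5.81, P2rx7 fell by 1.04, and Egfr did not pass (-0.06, adjusted p = 0.765). Ccr6 had 0 and 0 counts in LDB2-/- and 10 and 33 in wild type and was not tested.

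Cytokines and signalling genes known to induce these peptides were mostly lower. Of 6 tested cytokines 5 fell and 1 rose, with a median of -2.25. Il1f6, among those that fell, passed the filter on low values through wild type alone, so the counts and median are a description. The interleukin-36 genes Il1f6 (-4.12), Il1f9 (-3.53) and Il1f8 (-3.31) fell, as did Tnf (-1.20) and Il1a (-0.60). Il1b rose by 0.96, a call lost with the library total alone (adjusted p = 0.0621). Il17a, Il17c and Il17f had 0 counts in both LDB2-/- libraries and at most 29 in a wild type library, all too low to test. With the library total alone 0 cytokines rose and 5 fell.

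Of 31 tested genes of microbial sensing and induction, 21 fell, 1 rose and 9 did not pass, with a median of -0.91. With the library total alone 23 fell. Tlr3 and Tlr5, among those that fell, passed the filter on low values through wild type alone, so these counts are a description. The largest falls were in Nod2, a sensor of bacterial muramyl dipeptide (-2.95, SE 0.29, adjusted p = 0.000693), Nfkbiz, a nuclear cofactor for Il17-induced genes (-2.71, adjusted p = 0.000505), and Nfkbia, the NF-kB inhibitor (-2.22). Relb, an NF-kB subunit (-1.60), and Stat3 (-1.50) fell too. Cyp27b1, which makes active vitamin D, rose by 2.19, while the vitamin D receptor Vdr, an inducer of the human cathelicidin gene, did not pass (0.07, adjusted p = 0.632). Cebpa fell by 1.37 (adjusted p = 0.000616). Cebpb was not called, with 13698 and 257 counts in LDB2-/- and 19720 and 16686 in wild type, so LDB2-/- library 2 stood far from the other 3.

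**Figure D4:**
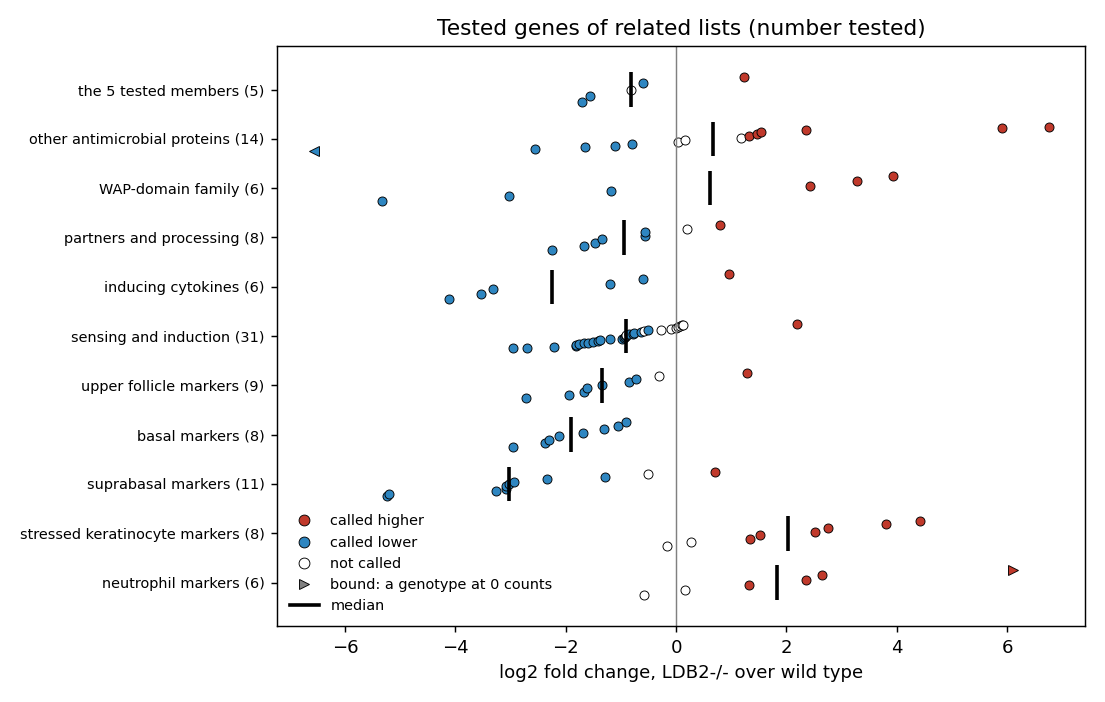
Log2 fold change of LDB2-/- over wild type for each tested gene of the related lists, coloured by call, with triangles for genes at 0 counts in one genotype, placed at their bound, and bars for list medians. The medians are -0.91 for sensing and induction and -2.25 for inducing cytokines, below 0, and 0.67 for other antimicrobial proteins, above it.

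Markers of epithelial compartments differed between genotypes in both directions, and their part in the results was not tested. Of 9 upper follicle markers 7 fell and 1 rose (Krt17), with a median of -1.34. Their summed FPKM was 2803 and 2758 in LDB2-/- and 2944 and 2888 in wild type. That sum is mostly Krt17 and Krt79, which moved oppositely. Mean FPKM was 1938 in LDB2-/- and 994 in wild type for Krt17, and 615 in LDB2-/- and 1392 in wild type for Krt79. All 8 basal keratinocyte markers fell, with a median of -1.91 and summed FPKM of 4735 and 4541 in LDB2-/- and 12244 and 11451 in wild type. Of 11 suprabasal and granular markers 9 fell, with a median of -3.03, and all 9 sebaceous markers fell, with a median of -2.20. Of 8 bulge markers 4 fell and 1 rose, with a median of -1.02. Opposite to Defb6 and Defb1, 6 of 8 stressed keratinocyte markers rose, with a median of 2.02, and all 14 growing hair markers rose, with a median of 7.59. Set against single keratins, the FPKM of Defb6 gave ratios that differed in direction with the keratin. Over Krt79, a keratin of the upper follicle, the ratio was 0.593 and 0.531 in LDB2-/- and 1.08 and 0.938 in wild type. Over the basal keratins it was also lower in LDB2-/-, at 0.162 and 0.138 for Krt14 in LDB2-/- and 0.255 and 0.266 in wild type, and at 0.169 and 0.147 for Krt5 in LDB2-/- and 0.249 and 0.248 in wild type. Over the suprabasal keratins it was higher in LDB2-/-, at 1.20 and 1.26 for Krt1 in LDB2-/- and 0.755 and 0.841 in wild type, and at 0.493 and 0.488 for Krt10 in LDB2-/- and 0.188 and 0.205 in wild type. The log2 fold change of Defb6, -1.70, lay between those of Krt14 (-0.90), Krt5 (-1.05) and Krt79 (-0.86) and those of Krt1 (-2.33) and Krt10 (-3.03). The ratio of Defb1 to Krt79 was 0.0452 and 0.0538 in LDB2-/- and 0.0443 and 0.0389 in wild type, and its ratio to Krt10 was 0.0376 and 0.0494 in LDB2-/- and 0.00766 and 0.00851 in wild type. All 5 ratios of Defb1 were higher in both LDB2-/- libraries, and with 2 libraries per genotype no such ratio can pass an exact test. Defb6 was first described in mouse skeletal muscle. The muscle marker Acta1 was at 12.3 ± 2.08 FPKM in LDB2-/- and 0.192 ± 0.0561 FPKM in wild type (SD, n = 2 each). The part of muscle in the values of Defb6 was not tested.

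Neutrophils carry Camp, Lcn2 and Slpi, so their markers are set beside these genes. Of 14 listed neutrophil genes 6 were tested, of which 4 rose (S100a8, S100a9, Fcgr3 and Retnlg) and 0 fell. The others, Cxcr2 (-0.58, edgeR adjusted p = 0.121) and Cxcr4 (0.16, edgeR adjusted p = 0.716), did not pass. With the library total alone 1 fell, Cxcr2. Retnlg passed the filter on low values through LDB2-/- alone, so these counts are a description. S100a8, S100a9, Ltf and Ngp stand on the list of antimicrobial proteins too, and keratinocytes also make S100a8 and S100a9. The summed FPKM of the 14 was 98.2 and 101.0 in LDB2-/- and 43.1 and 25.1 in wild type. Genes of the list that did not reach the test were low, and Elane and Mpo had too few counts to show a direction. Elane had 0 and 0 counts in LDB2-/- and 0 and 2 in wild type, and Mpo had 0 and 0 counts in LDB2-/- and 0 and 3 in wild type. Ltf had 94 and 246 counts in LDB2-/- and 0 and 0 in wild type, Ngp had 38 and 22 in LDB2-/- and 0 and 0 in wild type, and Ly6g had 13 and 0 in LDB2-/- and 0 and 0 in wild type. When no filter was set, the edgeR adjusted p was 0.00318 for Ltf, 0.0268 for Ngp and 0.206 for Ly6g. Csf3r, the receptor of granulocyte colony-stimulating factor, had 152 and 195 counts in LDB2-/- and 9 and 8 in wild type, with an edgeR adjusted p = 0.00132 when no filter was set. Lcn2 was at 559 and 894 counts in LDB2-/- and 2346 and 951 in wild type. The part of neutrophils in the values of Camp, Lcn2 and Slpi was not tested.

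The number of genes with a profile like that of a member over the 4 libraries differed between members. Likeness was the distance between log2 CPM profiles centred on their mean. Nearest genes were sought among 11792 genes, with gene models and small RNAs left out, and genes within 0.5 were counted over all 12400 tested. The genes nearest to Defb6 were Dlx5 (distance 0.0364), Polk (0.0385) and Dapp1 (0.0797), and 656 genes lay within 0.5. Nearest to Defb1 were Zfp2, Gin1 and Capn10, with 2444 genes within 0.5. Nearest to Defb14 were Adck3, Relb and Zfp868, with 25 genes within 0.5, and nearest to Slpi were Car6, Tmem246 and Lgmn, with 796. Lcn2, whose wild type libraries differed, had 28 genes within 0.5, the nearest being Gabrp (0.195), Mgat5b and Nek3.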

How the data were processed

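The deposited table held 17721 genes. Read counts per gene were deposited by the authors as whole numbers without normalization, per the file headers. FPKM values were deposited by the authors, per the file headers, and their column sums were not equal. The authors also deposited log2 values normalized between libraries by a method the headers do not name, and their own comparison, a signed fold change treated as a score with an adjusted p-value. Per the submitters' processing notes, the tools were HISAT2 2.1.0, StringTie 1.3.4d and bcl2fastq 1.8.4 and the build was mm10, with no settings, and whether counting used strand is not given in the sources used here.

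Genes that reached 1 FPKM in 2 or more libraries entered edgeR 4.0.16 (quasi-likelihood, two-sided, TMM scaling, Benjamini-Hochberg adjustment, threshold 0.05) in R 4.3.3. The SE is the one implied by the F statistic. The script was tested on simulated data. DESeq2 1.42.0 and limma 3.58.1 served as alternatives, limma on log2(FPKM + 1) and log2(FPKM + 0.1), scales that understate changes of low genes, beside other scalings, filters, a robust fit, a block on the replicate number and each library left out. Fold bounds set a genotype at 0 to 3 counts over the group. Sequences were credited to RefSeq (GRCm38.p6), coordinates to GENCODE on the same build as mm10, and promoters were aligned with Biopython 1.88. The members and lists were chosen with earlier results of these data known. Named genes were every member, up to 4 called genes per list by size of change, known inducers or partners, and the 3 nearest profiles per member. Other list genes named (Cebpb, S100a8, Pglyrp3, Pglyrp4, Rnase4, Lyz2, Cxcl14, Wfdc3, Wfdc17, Defb2, Defb30, Ltf, Ngp, Csf3r, Ly6g, Csn3, the keratins set beside Defb6, Il1a, Il1b and Il17 genes) were chosen after their values were seen. The same holds for Adm, Tlr3, Tlr5, Cxcr2, Cxcr4, Adgre1 and Csf1r.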

Additional observations from a re-analysis of the deposited data

How the results depend on the processing

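The directions of Defb1, Defb6, Defb14, Lcn2 and Slpi held under every alternative that could test them, 16 for Defb1, Defb6 and Lcn2 and 15 for Defb14 and Slpi, which a mean of 5 FPKM or more leaves out. Defb6 ran from -2.02 to -1.61 and Defb1 from -0.93 to -0.49, each called throughout.

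Of members, 4 were called, 3 lower and 1 higher, and 2 were called with no filter, with filterByExpr, with a mean of 5 FPKM or more and with the crossed block, where 0 were higher. The library total alone and the replicate block also gave 0 members higher, and leaving out single replicates gave 2 to 3 calls, 0 to 1 higher. The Defb14 call was lost with no filter (-1.58), filterByExpr (-1.57), DESeq2 (-1.55) and the crossed block (-1.68), and its log2 fold change ran from -2.43 to -1.02 without single replicates. The Slpi call was lost with no filter (1.20), filterByExpr (1.21), the library total alone (0.91), the replicate block (1.25) and the crossed block (1.25), and its value ran from 0.97 to 1.54 without single replicates. Lcn2 was called with the library total alone (-1.14) and with limma at pseudocounts of 1 (-1.0) and 0.1 (-1.05), and ran from -1.27 to -0.16 without single replicates. The cause of these changes was not tested.

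Genes called numbered 7097, and 5669 to 6702 without single replicates. With the library total alone 2248 were higher. The beta-defensin FPKM ratio of 0.258 became 0.226 with FPKM scaled to a common sum, and 0.237 to 0.279 without single replicates.

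Libraries with the same number did not deviate together (correlation of deviations -0.16 over 12400 genes), so the numbers are not taken as pairs. The replicate block called 6092 genes and 3 members, and the crossed block, chosen after seeing the data, 7269 genes and 2 members. Depth limits Defb3 and Camp, with at most 8 and 12 counts in a library.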

Other observations

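Rnase4, a secreted ribonuclease, had 54.2 FPKM on average in LDB2-/- and 117.3 FPKM in wild type, a log2 fold change of -0.80 (adjusted p = 0.00309). Lyz2, the lysozyme of macrophages, rose by 1.47 on the log2 scale (edgeR adjusted p = 0.00318). Of 9 tested macrophage markers, Lyz2 among them, 7 rose and 2 fell. Those that fell were Adgre1 (-0.96, edgeR adjusted p = 0.0295) and Csf1r (-0.95, edgeR adjusted p = 0.00191). Cxcl14, an antimicrobial chemokine of normal skin, did not pass (0.16, adjusted p = 0.332), and its value was -0.16 with the library total alone. Of 6 tested genes on a list set for epidermal T cells 5 fell, with a median of -1.37. The largest falls were in Ptprc (-2.19) and Skint1 (-1.94), neither of which is particular to T cells. Ltf had 94 and 246 counts in LDB2-/- and 0 and 0 in wild type, at least 144.1-fold higher against 3 counts over the wild type group, and was too low in FPKM to be tested.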
